A study of Mus musculus with 8 samples.

Results

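Ribosome biogenesis factors are the proteins that transcribe, modify, cut and fold ribosomal RNA in the nucleolus and join it with ribosomal proteins into the small and large subunits. Small nucleolar ribonucleoproteins (snoRNPs) guide the chemical modification of the RNA: those of the box C/D class add methyl groups to ribose, and those of the box H/ACA class turn uridine into pseudouridine. In growing and dividing cells the pathway takes up a large part of all transcription, and the transcription factor MYC is known to drive many of its genes. The 36 genes described here were chosen by name from that pathway, as nucleolar and ribosomal RNA processing genes, at a time when earlier results of these data were known, and all 36 were found by symbol among the 49315 genes of each count table. All 36 also passed the filter on low counts, which kept 16126 genes.

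RNA was sequenced from heart muscle cells of C57/Bl6 mouse embryos of day 12.5, male and female pooled, that were grown in culture with 10 µM simvastatin (4 libraries) or in control medium (4 libraries). Simvastatin is a statin, an inhibitor of the enzyme that makes mevalonate, and the study's title gives cardiomyocyte proliferation as its interest. The labels' extraction protocol speaks of dissected hearts, while the series' design text speaks of cells treated in culture. No source used here gives the time in the drug or says whether replicates were separate cultures, so the p-values describe the spread between libraries, part of which may be technical. The header of each count column names a set: in both groups replicates 1 and 3 belong to set 1 and replicates 2 and 4 to set 2, and what a set was is not given. Library totals ran from 30474586 to 34993255 counts with simvastatin and from 31457872 to 35215640 in controls.

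The label of the cells was checked against markers. All 10 cardiomyocyte markers were detected, with summed levels of 70937 to 74726 CPM (counts scaled by library total and TMM factor) with simvastatin and 57766 to 69777 CPM in controls, and 2 of them rose and 0 fell. Markers of other cell types were low against these, but none was at 0 counts. The 7 smooth muscle and pericyte markers summed to 730 to 972 CPM with simvastatin and 2688 to 3750 CPM in controls, and 5 of them fell and 1 rose. The 8 fibroblast markers summed to 1236 to 1440 against 1145 to 2541 CPM, and 3 of them fell. The 8 endothelial markers summed to 226 to 283 against 220.4 to 305 CPM, and 2 rose and 2 fell. The 7 epicardial markers summed to 314 to 333 against 226 to 354 CPM, and 1 rose and 2 fell. Markers of macrophages and blood, of which 8 of 10 were tested, summed to 57.4 to 64.3 against 68.6 to 77.8 CPM, and 3 of them fell and 1 rose. The part of these shifts in the results on ribosome biogenesis was not tested, and in bulk RNA fewer cells of a type and less RNA per cell cannot be told apart.

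With simvastatin, many of the 36 ribosome biogenesis genes were modestly lower. Of the 36 genes 17 fell (edgeR, quasi-likelihood test, p under 0.05 after Benjamini-Hochberg adjustment over all genes), against 9.61% of the 16126 genes tested; since earlier results were known when the 36 were chosen, this comparison is a description. The falls ranged from 21.6% lower for Utp4 to 37.7% lower for Nop56, and 0 of the 36 reached a 2-fold difference. None rose, in edgeR, DESeq2 or limma-voom, against 7.79% of all genes; 25 of the 36 had an unadjusted p under 0.05, each with a lower level in simvastatin, against 15.4% of all genes with such a p and a lower level. The median log2 fold change was -0.38, against 0.01 over all genes tested, and 35 of 36 values were below 0, against 48.8% of all genes.

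In 22 of the 36 genes every simvastatin library lay below every control library, which was so for 12.1% of all genes. The summed level of the 36 genes was 2228 ± 101 CPM with simvastatin and 2768 ± 201 CPM in controls (SD, n = 4 each). By library the sums were 2096, 2260.3, 2218 and 2337 CPM in simvastatin replicates 1 to 4, against 3024, 2620, 2830.4 and 2597 CPM in control replicates 1 to 4. The sums of the 2 groups did not overlap, and control replicates 1 and 3, the libraries of set 1, were the highest. Among replicates the median coefficient of variation of the genes was 8.2% with simvastatin and 12% in controls, against 16.9% and 19.0% for all genes. Genes of low count vary more in this measure, and the comparison was not matched for level.

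**Figure D1:**
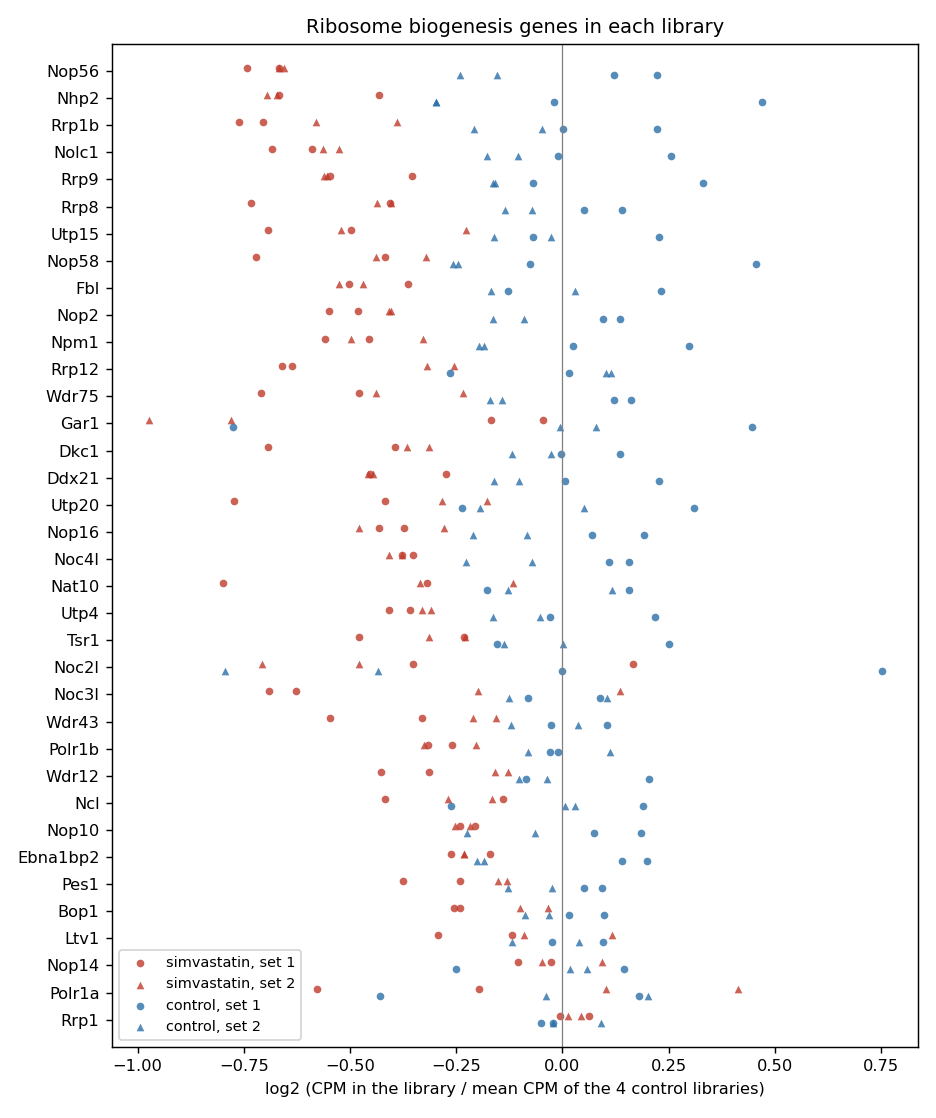
Each row is a gene and each point a library, placed by the log2 ratio of its CPM to the mean of the 4 control libraries; red is simvastatin, blue control, circles set 1 and triangles set 2. Rows are ordered by the fitted log2 fold change, from -0.68 for Nop56 at the top to 0.03 for Rrp1 at the bottom, and in 22 rows all red points lie to the left of all blue ones.

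The count of calls depended on which libraries were kept, while the median stayed below 0. Without simvastatin replicate 1, 2, 3 or 4 the number of the 36 genes that fell was 9, 6, 7 or 11, and without control replicate 1, 2, 3 or 4 it was 7, 13, 10 or 15. The median log2 fold change stayed between -0.44 and -0.33 in these 8 fits. The genes called in all 8 were Nop56, Rrp1b, Nolc1, Rrp8 and Nop2. With set 1 alone 6 genes fell, against 5.91% of all genes in that fit, and with set 2 alone 7 fell, against 11.5%; Nop56 and Nolc1 were called in both.

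RNA polymerase I, which transcribes ribosomal DNA, was represented by its largest pair of subunits, and neither passed the test. Polr1a (chromosome 6, 71909053 to 71984935, GRCm38) stood at 31.6, 62.7, 41.1 and 50.6 CPM in simvastatin replicates 1 to 4, against 53.4, 45.8, 34.97 and 54.1 CPM in control replicates 1 to 4. The groups overlapped throughout, and the log2 fold change was -0.02 ± 0.21 (SE, edgeR adjusted p = 0.971). Polr1b was at 29.7 to 32.4 CPM with simvastatin and 35.3 to 40.3 CPM in controls. These ranges did not overlap, but the log2 fold change of -0.28 missed the threshold in edgeR (adjusted p = 0.0741), while the Wald test of DESeq2 called it (adjusted p = 0.0273).

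Of the 3 core proteins of box C/D snoRNPs among the 36 genes, 2 fell. Snu13, also a core protein, was kept with the small subunit factors and did not pass (log2 fold change -0.32, edgeR adjusted p = 0.0549). Nop56, a scaffold protein of these particles (chromosome 2, 130274430 to 130279313), stood at 98.3, 103, 103 and 104 CPM in simvastatin replicates 1 to 4, against 192, 139, 179 and 148 CPM in control replicates 1 to 4. The simvastatin libraries were nearly alike and all lay below the lowest control, and the set 1 controls were the highest. The log2 fold change was -0.68 ± 0.11 (SE, edgeR adjusted p = 0.0021), the largest fall of the 36. Fbl, fibrillarin, the ribose methyltransferase (chromosome 7, 28169710 to 28179269), was at 50.2, 44.8, 45.5 and 46.6 CPM with simvastatin, against 59.1, 57.4, 75.8 and 65.9 CPM in controls. Its groups did not overlap and its log2 fold change was -0.46 ± 0.11 (edgeR adjusted p = 0.0152). Nop58, the partner and paralog of Nop56 (chromosome 1, 59684971 to 59719044), was at 43.2, 52.6, 53.4 and 57.0 CPM with simvastatin, against 97.8, 60.1, 67.6 and 59.6 CPM in controls. Control replicate 1 stood far above the rest, and although the groups did not overlap Nop58 did not pass, with a log2 fold change of -0.47 ± 0.17 (edgeR adjusted p = 0.0825). When each library was left out in turn, Fbl lost its call in 2 of the 8 fits, with an adjusted p of up to 0.0543.

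In the box H/ACA particles, 2 of 4 core proteins fell. Nhp2 (chromosome 11, 51619735 to 51623714), which binds the guide RNA, was at 48.3, 40.9, 41.0 and 40.2 CPM in simvastatin replicates 1 to 4, against 64.3, 53, 90.2 and 53 CPM in control replicates 1 to 4. All simvastatin libraries were below all controls, control replicate 3 was highest, and the log2 fold change was -0.61 ± 0.17 (edgeR adjusted p = 0.0314). Dkc1, dyskerin, the pseudouridine synthase (chromosome X, 75095854 to 75109777), was at 47.0 ± 5.25 CPM with simvastatin and 63.6 ± 4.70 CPM in controls (SD, n = 4 each), a log2 fold change of -0.43 ± 0.11 (edgeR adjusted p = 0.0208). Nop10, a small structural protein of the particle, was at 79.8 to 82.3 CPM against 81.3 to 108 CPM and did not pass (log2 fold change -0.23, edgeR adjusted p = 0.162). Gar1, which helps load substrate RNA, was low, at 3.42 to 6.52 CPM against 3.93 to 9.16 CPM, with an edgeR adjusted p of 0.352. The calls of Nhp2 and Dkc1 were lost in 4 and 1 of those 8 fits, with adjusted p of up to 0.0846 and 0.0533.

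Nucleolar chaperones and a helicase followed the same direction, and 3 of 4 fell. Nolc1, a chaperone of snoRNPs also called Nopp140 (chromosome 19, 46075863 to 46085528), stood at 36.7, 41.0, 39.3 and 39.9 CPM in simvastatin replicates 1 to 4, against 70.5, 52.2, 58.6 and 54.9 CPM in control replicates 1 to 4. The groups were well apart and the log2 fold change was -0.59 ± 0.11 (SE, edgeR adjusted p = 0.00498). Npm1, nucleophosmin, an abundant histone and ribosome chaperone (chromosome 11, 33152287 to 33163206), was at 226, 235, 242 and 265 CPM with simvastatin, against 409, 293, 338 and 290.3 CPM in controls. Its set 1 controls were higher than its set 2 controls, and all controls were above all simvastatin libraries (log2 fold change -0.46 ± 0.12, edgeR adjusted p = 0.024). The helicase gene Ddx21 was at 31.4 ± 2.0 CPM with simvastatin and 41.6 ± 5.12 CPM in controls (edgeR adjusted p = 0.0325). Ncl, nucleolin, which binds nascent ribosomal RNA (chromosome 1, 86344719 to 86359400), was at 196, 218, 238 and 233 CPM with simvastatin, against 299, 268, 219 and 263 CPM in controls. Control replicate 3 lay within the simvastatin range, and Ncl did not pass (log2 fold change -0.24 ± 0.11, edgeR adjusted p = 0.171). The calls of Npm1 and Ddx21 were each lost in 5 of those 8 fits, with adjusted p of up to 0.0638 and 0.0784. Npm1 has processed pseudogenes with a near-identical sequence, and how reads that match several places were counted is not given, so its level is uncertain.

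**Figure D2:**
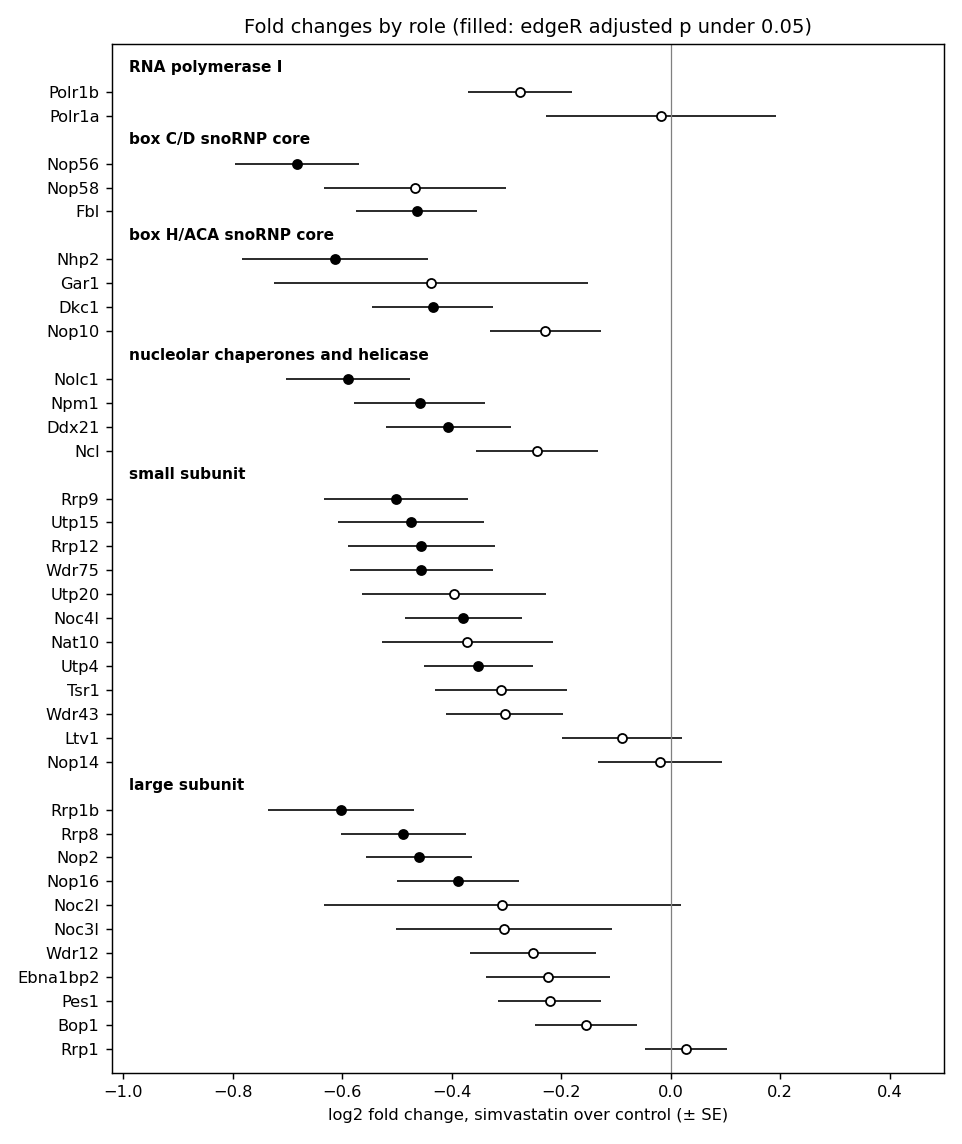
Points are log2 fold changes of simvastatin over control with SE bars from the edgeR fit, grouped by role; filled points have an adjusted p under 0.05. All 17 filled points lie between -0.68 and -0.35, and the open points run from -0.47 for Nop58 to 0.03 for Rrp1.

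Of 12 factors of the small subunit, 6 fell. Rrp9, a protein of the snoRNP that guides the early cuts of the precursor (chromosome 9, 106475963 to 106485424), was at 31.4, 27.4, 27.5 and 27.3 CPM in simvastatin replicates 1 to 4, against 38.3, 35.9, 50.5 and 36.02 CPM in control replicates 1 to 4. Simvastatin replicate 1 and control replicate 3 were the highest of their groups, which did not overlap, and the log2 fold change was -0.50 ± 0.13 (edgeR adjusted p = 0.0244). The subcomplex that binds the nascent precursor first was represented by Utp4, Utp15, Wdr43 and Wdr75. In each of these 4 genes all simvastatin libraries were below all controls, and Utp4, Utp15 and Wdr75 fell. Utp15 was at 19.8 to 27.4 against 28.7 to 37.6 CPM (log2 fold change -0.47), Wdr75 at 27.8 to 38.7 against 40.4 to 50.9 CPM (-0.46), and Utp4 at 73.5 to 78.8 against 87.2 to 114 CPM (-0.35). Wdr43, at 62.2 to 81.4 against 83.4 to 97.6 CPM, had a log2 fold change of -0.30 (edgeR adjusted p = 0.0795). Heatr1 and Nol11, also of this subcomplex but outside the 36 genes, overlapped between groups. Their log2 fold changes were -0.36 and -0.17, and they did not pass (edgeR adjusted p = 0.195 and 0.343).

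Rrp12, which takes part in the export of both subunits, fell with a log2 fold change of -0.46, with 28.6 to 37.9 CPM in simvastatin and 37.6 to 48.9 CPM in controls, ranges that overlapped at their edges. Noc4l, a partner of Nop14, fell with -0.38 and was even in the treated cells, at 42.0 ± 0.694 CPM with simvastatin and 54.6 ± 6.52 CPM in controls (SD, n = 4 each). Nop14 itself was at 33.3 ± 1.96 against 33.7 ± 3.81 CPM, a log2 fold change of -0.02 ± 0.11 (edgeR adjusted p = 0.938). Ltv1, a factor of late cytoplasmic maturation, was at 47.5 ± 5.56 against 50.5 ± 3.21 CPM (-0.09, edgeR adjusted p = 0.659). Utp20, the acetyltransferase gene Nat10 and the late factor Tsr1 had values of -0.40, -0.37 and -0.31 and did not pass (edgeR adjusted p = 0.144, 0.14 and 0.113). Without at least 1 library each of the 6 calls ended: Rrp9 kept its call in 5 of the 8 fits, Wdr75 in 3, Utp15 and Rrp12 in 2, and Utp4 and Noc4l in 1, with adjusted p of up to 0.0752, 0.0871, 0.0855, 0.113, 0.0912 and 0.0857.

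Among 11 factors of the large subunit, 4 fell. Nop2, which methylates a cytosine of the large ribosomal RNA (chromosome 6, 125131909 to 125144753), was at 74.6 ± 3.53 CPM with simvastatin and 103 ± 10.2 CPM in controls (SD, n = 4 each). No simvastatin library exceeded 77.6 CPM and no control was under 91.7 CPM, and the log2 fold change was -0.46 ± 0.10 (edgeR adjusted p = 0.00844). Rrp8, nucleomethylin, which methylates an adenine (chromosome 7, 105731730 to 105737385), was at 27.1, 34.1, 34.1 and 33.3 CPM in simvastatin replicates 1 to 4, against 49.7, 42.9, 46.7 and 41.0 CPM in control replicates 1 to 4. Its groups did not overlap and the log2 fold change was -0.49 ± 0.11 (edgeR adjusted p = 0.0139). Nop16 fell with -0.39, at 39.4 to 45.2 against 47.4 to 62.7 CPM, a call that held in only 1 of the 8 fits without a library (edgeR adjusted p of up to 0.1).

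Of the paralogs Rrp1 and Rrp1b, both large subunit processing factors, Rrp1b fell and Rrp1 did not pass. Rrp1b (chromosome 17, 32036100 to 32062865) was at 17.2, 18.7, 16.5 and 21.4 CPM in simvastatin replicates 1 to 4, against 32.7, 27.1, 28.0 and 24.2 CPM in control replicates 1 to 4. These groups did not overlap, and Rrp1b fell with a log2 fold change of -0.60 ± 0.13 (edgeR adjusted p = 0.0104). Rrp1 (chromosome 10, 78400362 to 78413043), the only gene of the 36 with a fold change above 0 on the log2 scale, was at 358, 346, 341 and 354 CPM with simvastatin, against 331, 365, 338 and 338 CPM in controls. Its groups overlapped and its log2 fold change was 0.03 ± 0.08 (edgeR adjusted p = 0.857). The log2 ratio of Rrp1b to Rrp1 was -4.25 ± 0.16 with simvastatin and -3.62 ± 0.21 in controls, a difference of -0.63 without overlap (SD, n = 4 each; two-sided exact permutation p = 0.0286, the smallest this design allows, or 0.0572 adjusted over 2 paralog pairs). The ratio of Nop56 to Nop58, the other pair, was 1.0 ± 0.13 with simvastatin and 1.22 ± 0.18 in controls on the same scale, a difference of -0.23 within overlapping ranges (exact permutation p = 0.0857). Both pairs were tested after their values were seen.

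The PeBoW complex, formed by Pes1, Bop1 and Wdr12 and needed to process the large subunit's RNA, had 0 of 3 members past the threshold in edgeR, DESeq2 and limma-voom. Pes1 was at 81.7 to 96.7 CPM with simvastatin and 96.8 to 113 CPM in controls, and Wdr12 at 29.99 to 36.9 against 37.6 to 46.4 CPM, so that neither overlapped between groups, but the edgeR adjusted p was 0.144 and 0.173, and Pes1 alone of the 3 had an unadjusted p under 0.05. Their log2 fold changes were -0.22 and -0.25, and that of Bop1, at 64.0 to 74.6 against 71.9 to 81.7 CPM, was -0.15. Ebna1bp2 had -0.22 (edgeR adjusted p = 0.223). Noc2l and Noc3l, which form a pair on the early large particle, were low, at 4.56 ± 1.24 against 5.64 ± 2.75 CPM and at 7.58 ± 2.09 against 9.36 ± 0.757 CPM. Their values of -0.31 and -0.30 lay within the spread of the replicates (edgeR adjusted p = 0.599 and 0.345).

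Per length of the gene model, the order of levels was led by Rrp1, at 467 TPM (counts scaled by gene length and by library) with simvastatin and 444 TPM in controls. Npm1 followed with 243 against 325 TPM, and Nop10 with 196 against 222 TPM. The lowest were Noc2l, at 4.26 against 5.07 TPM, and Noc3l, at 5.11 against 6.11 TPM. The lengths count every annotated exon of a gene, retained introns included, so genes such as Ncl and Nop58 are set lower on this scale than their main transcripts would be. The lowest count of any of the 36 genes in any library was 104 and the highest 14368, so depth did not limit the detection of any of them.

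Most of the 36 genes had a larger fall in set 1 than in set 2, which did not pass a test for any single gene. The median log2 fold change of the 36 genes was -0.51 in set 1 and -0.22 in set 2, against 0.002 and 0.005 over all genes tested, and 34 of 36 genes had the lower value in set 1. Both simvastatin libraries lay below both controls for 30 genes in set 1 and for 26 in set 2, and for 24 in both, against 26.6% of all genes in set 1 and 30.3% in set 2. In the interaction of set and treatment, 0 of 36 genes had an adjusted p under 0.05 (edgeR, against 0.0558% of all genes), and 6 had an unadjusted p under 0.05, against 11.5% of all genes. The interaction value, set 2 minus set 1, was above 0 for 33 of the 36 genes, against 52.9% of all genes. This was not particular to the 36. The value was also above 0 for 116 of 150 other genes of the pathway and for 79 of 83 ribosomal protein genes. The smallest adjusted interaction p among the 36 genes was 0.295 (edgeR), for Wdr75, and no test was made of the 36 genes together.

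The order of the sets was not the same in the 2 groups. For 20 of the 36 genes both set 1 controls were above both set 2 controls, which held for 24.4% of all genes. With simvastatin the same order held for 5 genes, against 25.4% of all genes, and the opposite order for 16, against 24.8%. The median log2 ratio of set 1 to set 2 was 0.17 among controls and -0.09 among simvastatin libraries. Wdr75 had both orders: its simvastatin libraries were at 27.8 and 32.7 CPM in set 1 and 33.5 and 38.7 CPM in set 2, against controls at 49.5 and 50.9 CPM in set 1 and 41.2 and 40.4 CPM in set 2. Fbl was closer between sets, with log2 fold changes of -0.51 in set 1 and -0.43 in set 2. Gar1 went the other way, with -0.09 in set 1 and -0.91 in set 2. This gene of low level passed with set 2 alone (edgeR adjusted p = 0.0145) but not with both sets pooled (edgeR adjusted p = 0.352).

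**Figure D3:**
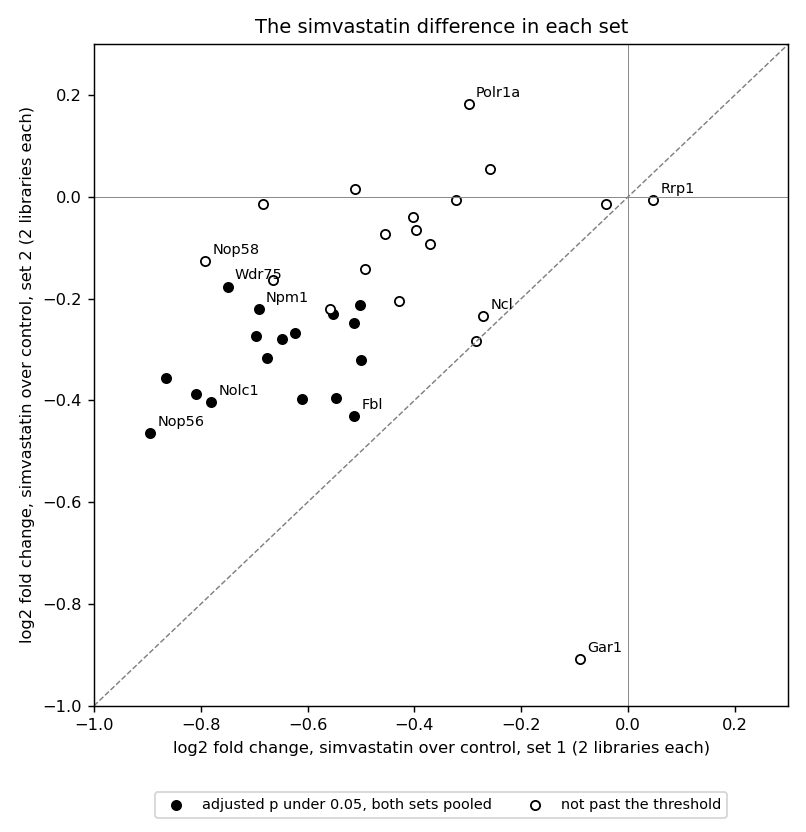
Each point is 1 of the 36 genes, with its log2 fold change of simvastatin over control from the 2 against 2 libraries of set 1 on the x axis and of set 2 on the y axis; filled points passed the pooled test and the dashed line marks equal values. The points lie above the line for 34 genes, around medians of -0.51 (set 1) and -0.22 (set 2).

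Regulators of the pathway were described beside the genes. Myc (chromosome 15, 61985391 to 61990374), which encodes the factor that activates many ribosome biogenesis genes, stood at 24.7, 23.8, 29.5 and 26.9 CPM in simvastatin replicates 1 to 4, against 66.2, 31.0, 59.3 and 28.5 CPM in control replicates 1 to 4. The set 1 controls stood above every other library, and the set 2 controls overlapped the simvastatin range. Myc did not pass the test, with a log2 fold change of -0.82 ± 0.26 (edgeR adjusted p = 0.0528), or -1.23 in set 1 and -0.23 in set 2. That difference between sets was 0.98, with an unadjusted p of 0.00118 and an adjusted p of 0.0969 in the edgeR interaction test. Mycn was at 39.5 ± 2.99 against 36.6 ± 3.45 CPM (log2 fold change 0.11, edgeR adjusted p = 0.565). Of the 12 genes of the MYC network tested, 2 fell (16.7%) and 1 rose (8.3%), against 9.61% and 7.79% of all genes. Mxd3, a MAX partner that is high in S phase, fell with -2.32, and Mycl fell with -3.10 from a low level, at 0.261 ± 0.108 against 2.24 ± 1.17 CPM. Mxd4, a MAX partner like Mxd3, rose with 0.58, at 53.4 ± 7.61 against 35.6 ± 4.90 CPM.

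**Figure D4:**
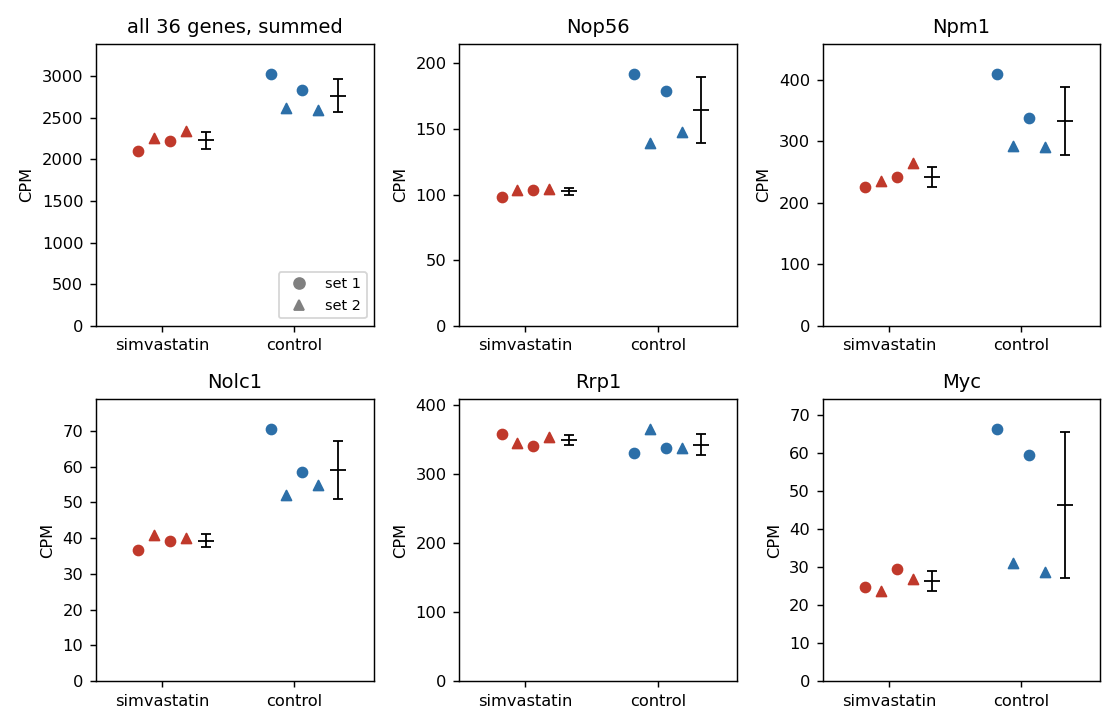
CPM per library (circles set 1, triangles set 2) with the mean ± SD of 4 libraries beside them, simvastatin at left and control at right, for the 36 genes summed and for Nop56, Npm1, Nolc1, Rrp1 and Myc. Rrp1 is level at 341 to 358 against 331 to 365 CPM, and in the sum, Nop56, Npm1, Nolc1 and Myc the set 1 controls are the highest libraries.

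Promoter letters of the genes were read from RefSeq (GRCm38.p6), which gave windows of 250 bases before to 50 after the start for 32 of the 36 genes, 37 windows in all. The E-box CACGTG, the letters bound by MYC and MAX, was in 7 of the 37 windows, or 18.9%, against 9.6% of windows of the genes tested and 7.2% of all windows. The ETS core CCGGAAG, searched on both strands (CTTCCGG on the other), was in 11 windows, or 29.7%, against 16.0% and 8.9%. Of 7 genes with the E-box 2 fell, and of 10 genes with the ETS core 4 fell while 14 of the 32 genes with a window fell. Windows differ in base composition, which was not matched, and a match is no evidence of binding. The 4 genes that fell and hold either motif within the 100 bases before the start are shown, 5′ to 3′ on the gene's strand, with motifs in capitals, which overlap nowhere. All are on the plus strand: Nop2 at chr6:125131783-125131882, Nolc1 at chr19:46075747-46075846, Nhp2 at chr11:51619673-51619772 and Utp4 at chr8:106893540-106893639.
Nop2: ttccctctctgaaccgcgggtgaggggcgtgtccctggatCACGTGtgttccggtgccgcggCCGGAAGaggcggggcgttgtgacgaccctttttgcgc
Nolc1: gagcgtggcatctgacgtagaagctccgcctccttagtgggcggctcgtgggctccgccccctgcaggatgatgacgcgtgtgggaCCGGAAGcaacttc
Nhp2: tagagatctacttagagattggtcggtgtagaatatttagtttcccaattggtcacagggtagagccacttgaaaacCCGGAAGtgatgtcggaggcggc
Utp4: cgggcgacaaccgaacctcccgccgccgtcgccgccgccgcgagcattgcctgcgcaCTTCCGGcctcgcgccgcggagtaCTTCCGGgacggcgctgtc
Nop2 carries the E-box upstream of the ETS core, and Utp4 carries the ETS core on the other strand at 2 places. Utp4 also has an E-box, which begins at base 16 after the start and so lies outside the bases shown.

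Other genes of the pathway were taken from 5 lists. Of 150 tested, 13 fell and 1 rose, or 8.7% and 0.7%, shares not above those of all genes (9.61% and 7.79%). Their median log2 fold change was -0.18 (-0.25 in set 1, -0.09 in set 2), against 0.01 over all genes tested. Of the 150 values 124 were below 0 (82.7%), against 48.8% of all genes. Every simvastatin library lay below every control library for 36 of the 150, against 12.1% of all genes, and above for 2. An unadjusted edgeR p under 0.05, in either direction, was found for 38, against 29.5% of all genes. Calls were thus no more frequent than among all genes, but most values were lower, by less than in the 36 genes. Without simvastatin replicate 1, 2, 3 or 4 the number that fell was 6, 4, 3 or 9, and without control replicate 1, 2, 3 or 4 it was 4, 10, 5 or 14.

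Among 55 large subunit factors 7 fell and 1 rose (12.7% and 1.8%, against 9.61% and 7.79% of all genes), with a median of -0.20. The 7 became 2, 1, 1 and 4 without simvastatin replicate 1, 2, 3 or 4, and 1, 4, 2 and 6 without control replicate 1, 2, 3 or 4, and the rise was lost in 5 of these 8 fits. Gnl3, nucleostemin, was at 31.8 ± 2.04 against 47.1 ± 8.30 CPM (SD, n = 4 each; log2 fold change -0.57, edgeR adjusted p = 0.0138). Mrto4 fell with -0.47 and Rbm28 with -0.40, and Sbds, which helps to free the finished large subunit, rose with 0.33. Among 50 small subunit factors 1, the methyltransferase gene Emg1, fell in edgeR (-0.40, adjusted p = 0.0207), while DESeq2 called 9 and the fits without 1 library 0 to 3, with a median of -0.16. Snu13, Wdr46 and Utp11 had -0.32, -0.34 and -0.33 and did not pass (edgeR adjusted p from 0.0549 to 0.0687). Of 16 exosome subunits and nucleases, which trim ribosomal RNA, 3 fell (2 or 3 without 1 library), with a median of -0.25. That is 18.8%, against 9.61% of all genes. Exosc8 fell with -0.80, Dis3 with -0.59 and Exosc2 with -0.57, while Exosc10 had -0.25 and did not pass (edgeR adjusted p = 0.0965).

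Of 10 snoRNP assembly factors the ATPase gene Ruvbl2 fell (-0.53, edgeR adjusted p = 0.0159), though 0 of the 10 fell without simvastatin replicate 3, and Ruvbl1 (-0.32), Znhit3 (-0.34) and Shq1 (-0.30) did not pass. Among 19 further genes of RNA polymerase I and its factors Tcof1, treacle, fell (-0.41, edgeR adjusted p = 0.0468), a list count that was 0 in 6 of the 8 fits without a library, the median was -0.09, and Taf1c (0.44), Cd3eap (-0.35) and Polr1e (-0.23) did not pass. Of 83 genes tested from a list of cytosolic ribosomal proteins made by symbol, 0 passed in edgeR, DESeq2 or limma-voom (1 fell in edgeR without control replicate 4). The list includes Rpl32l, Rpl6l and Rps4l, which are annotated as processed pseudogenes. Of the 83, 5 had an unadjusted p under 0.05 in edgeR (against 29.5% of all genes, in either direction). A log2 fold change below 0 was found for 70 of them, against 48.8% of all genes. The median was -0.11, with -0.22 in set 1 and 0.005 in set 2. Ribosomal protein genes have many processed pseudogenes, so their levels are uncertain.

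**Figure D5:**
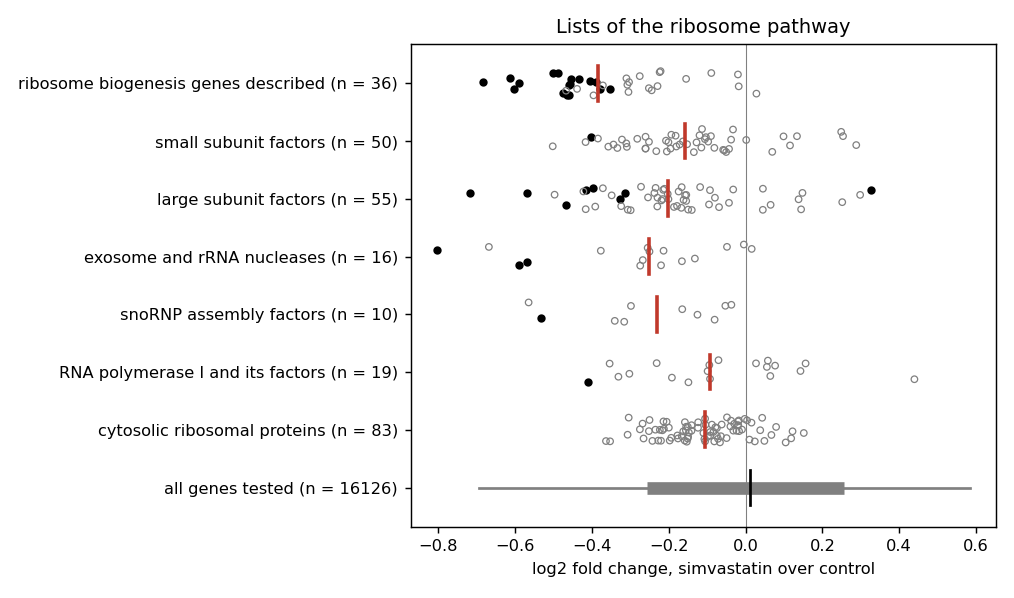
Each point is a gene at its log2 fold change of simvastatin over control, filled where the edgeR adjusted p is under 0.05, with the median of the list as a red line; for all genes the thick bar spans the 25th to the 75th percentile and the thin line the 10th to the 90th percentile. The medians are -0.38 for the 36 genes, -0.25 for the exosome, -0.20 and -0.16 for large and small subunit factors and -0.11 for ribosomal proteins, against 0.01 for all 16126 genes.

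Several of the genes share sequence with a neighbour, and no source used here says whether the counting used strand. Tsr1 shares 32.3% of its exon length with Srr on the opposite strand, Noc2l 20.9% with Samd11 and Rrp8 9.98% with Ilk. Reads there can be told apart only if the counting used strand. In the other genes with a neighbour of the opposite strand the shared length was at most 5.27%. The values of Rrp8, Tsr1 and Noc2l are the less certain for it.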

How the data were processed

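RNA-seq of 4 simvastatin and 4 control libraries was used. Per the submitters' processing notes, Trimmomatic 0.36, STAR 2.5.2b and featureCounts of Subread 1.5.2 were used with GRCm38; no source used here gives the annotation release or strand setting. The values are raw read counts per gene as deposited by the authors, with 30474586 to 35215640 counts per library. Symbols came from GENCODE by gene ID for 99.47% of genes.

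Counts were fitted with edgeR 4.0.16 in R 4.3.3 (TMM scaling, filterByExpr, quasi-likelihood test of treatment, two-sided, Benjamini-Hochberg over 16126 genes, threshold 0.05). Set by treatment was tested as an interaction. TPM used the length of all exons. The script was tested on simulated data with 200 changed genes of 15867, drawn from genes of all levels. It recovered 3% of 1.5-fold, 49.2% of 2-fold and 89.2% of 4-fold changes at the same threshold. The simulation gave 96 calls, while in the data 1549 genes fell and 1256 rose. With a smaller share of calls the same adjusted threshold is stricter, so these recovered shares do not describe the fit to the data. A gene that did not pass is still not shown to be unchanged. Alternatives were DESeq2 1.42.0, limma-voom (limma 3.58.1), other scalings and filters, a replicate block, set as a term, each set alone and leaving out each library. No libraries were duplicates: within groups the chi-square per degree of freedom was 16.54 to 82.06. The members and gene lists were chosen with earlier results of these data known. All 36 genes are named, with up to 4 genes of smallest p per other list and Myc, Mycn, Mdm2, Mdm4, Heatr1 and Nol11.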

Additional observations from a re-analysis of the deposited data

Results flagged for a closer look

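In 9 of 130 groups of 4 libraries 1 library stood apart from the other 3 by Dixon's test at the 95% level; chance flags about 1 in 20 groups. In simvastatin replicate 1, Nop56 was lowest at 98.26 CPM (others 103.44 to 104.33), Rrp8 lowest at 27.125 CPM (others 33.316 to 34.094) and Exosc10 lowest at 84.146 CPM (others 99.585 to 102.25). In the same library Nhp2 was highest at 48.295 CPM (others 40.196 to 40.996) and Rrp9 highest at 31.441 CPM (others 27.258 to 27.513). Ddx21 was highest in simvastatin replicate 3 at 34.416 CPM (others 30.322 to 30.55), and Emg1 in simvastatin replicate 4 at 57.446 CPM (others 52.955 to 53.446). Among controls, Rrp9 was highest in replicate 3 at 50.536 CPM (others 35.897 to 38.329) and Cd3eap in replicate 2 at 25.154 CPM (others 23.628 to 23.751). Simvastatin replicate 1 holds 5 of the 9.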

How the results depend on the processing

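None of the 36 genes rose under any alternative. The number that fell was 17 and became 11 without the filter, 6 in set 1 alone, 7 in set 2 alone and 6 to 15 without 1 library; the other scalings, filter and tools and set as a term gave 14 to 18. The median log2 fold change was -0.51 in set 1, -0.22 in set 2 and -0.44 to -0.33 without 1 library. With the replicate block 5 of the 36 fell, and of the other pathway genes 4 fell and 0 rose. Same-numbered libraries correlated at -0.143, 0.045, 0.133 and -0.162, and no library correlated best with its own number. With so few libraries per group these values cannot decide whether the numbers pair them. Of the other pathway genes, 13 fell and 1 rose. The number that fell became 8 with library totals, 25 with DESeq2, 6 without the filter, 5 in set 1, 7 in set 2 and 3 to 14 without 1 library. The number that rose became 2 with library totals, 3 with DESeq2, 0 without the filter, 2 with set as a term, 0 in set 1 and 0 to 1 without 1 library. Of all genes, set 1 alone gave 979 that fell and 648 that rose, and leaving out 1 library 1185 to 1417 and 817 to 1115. Signs turned only for genes without a call: Noc2l (0.015 in set 2, -0.506 to 0.072 without 1 library), Ltv1 (0.054 in set 2), Nop14 (0.004 with library totals, -0.088 to 0.028 without 1 library), Rrp1 (-0.006 in set 2) and Polr1a (0.000 with library totals, 0.182 in set 2, -0.200 to 0.13 without 1 library). Leaving out libraries and single sets use fewer samples; the cause of the other changes was not tested.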

Other observations

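Genes of small nucleolar RNAs lie inside 6 of the 36 genes, 18 in all, with 5 in Nop56, 4 in Nop58, 3 each in Ncl and Wdr43, 2 in Tsr1 and 1 in Dkc1. Of these 18, 9 had 0 counts and none had more than 223 counts summed over the 8 libraries, so their levels were not compared. The cause of the low counts was not tested.

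Of 6 genes of the ribosomal stress pathway, in which free ribosomal proteins bind the p53 inhibitor MDM2, 1 rose and 1 fell. Each is 16.7% of this short list, against 7.79% of all genes that rose and 9.61% that fell. Cdkn1a, the p53 target that encodes p21, was at 424 ± 7.66 CPM with simvastatin and 266 ± 6.62 CPM in controls (SD, n = 4 each; log2 fold change 0.67, edgeR adjusted p = 0.000168). Mdm2, also a p53 target, was at 121 ± 19.8 against 130.5 ± 20.8 CPM and did not pass (log2 fold change -0.11, edgeR adjusted p = 0.696), nor did Mdm4 (0.05, edgeR adjusted p = 0.868). Trp53, which encodes p53, was at 59.0 ± 3.33 against 82.8 ± 13.4 CPM (log2 fold change -0.49, edgeR adjusted p = 0.0193), and 0 genes of this list fell without simvastatin replicate 2 or 3 or control replicate 1 or 3. Rpl5 and Rpl11 had log2 fold changes of -0.21 and -0.15 and did not pass (edgeR adjusted p = 0.215 and 0.506).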
